A study of Homo sapiens with 24 samples.

Results

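Interferon-stimulated genes are genes whose transcription rises when a cell senses interferon. The set described here holds 40 such genes, chosen by name from the 34595 gene rows of the deposited table, and every named gene has a row. Type I interferons and the lambda interferons bind different receptors at the cell surface and activate the same transcription factor complex, which holds STAT2 and IRF9. The complex binds a repeated GAAA element in the promoters of these genes. The products sense or degrade viral RNA, attach the ubiquitin-like protein ISG15 to other proteins, or hold viruses at membranes. Tumour cells, pancreatic ones included, can carry a raised level of them without added interferon.

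The levels were measured on 24 one-colour Illumina arrays of RNA from 2 established human pancreatic cancer lines, Capan-1 (here Capan1) and PANC-1 (here Panc1), grown in medium with serum, with 12 groups of 2 arrays. In each line a group received the vehicle DMSO and another an inhibitor of IRAK1 and IRAK4, the kinases below the IL-1 and Toll-like receptors, at 10 uM for 24 h. The other 4 groups of a line carried a pair of retroviruses: a first that gave puromycin resistance (1 ug/mL for 48 h) and a second that carried GFP and gave geneticin resistance (500 ug/mL for 4 days). Scramble cells had a scrambled hairpin on both, shIRAK1 and shIRAK4 cells had the named hairpin on the first and the scrambled one on the second, and shIRAK1+4 cells had shIRAK1 on the first and shIRAK4 on the second. All hairpin cells, scramble included, therefore differ from DMSO cells by virus, GFP and both selection drugs, and these cannot be told apart in a comparison of scramble with DMSO. The series description names PANC-1 alone for the hairpins, while hairpin arrays of both lines were present. Nothing in the labels says that partner arrays hold RNA of separate cultures, so every p-value below is set against a spread between samples that could be purely technical.

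The promoters of 5 members whose values are described below are shown as examples of the element, as the 250 bases before the start in RefSeq's table (GRCh38.p14), read 5′ to 3′ on the strand of the gene. Capitals mark each match to GAAANNGAAA, or to its reverse complement TTTCNNTTTC, the core of the element that this complex reads. The windows lie at chr1:1013247-1013496 (ISG15, plus strand), chr1:27672193-27672442 (IFI6, minus), chr10:89392373-89392622 (IFIT1, plus), chr4:88456869-88457118 (HERC5, plus) and chr13:42992242-42992491 (EPSTI1, minus).
ISG15: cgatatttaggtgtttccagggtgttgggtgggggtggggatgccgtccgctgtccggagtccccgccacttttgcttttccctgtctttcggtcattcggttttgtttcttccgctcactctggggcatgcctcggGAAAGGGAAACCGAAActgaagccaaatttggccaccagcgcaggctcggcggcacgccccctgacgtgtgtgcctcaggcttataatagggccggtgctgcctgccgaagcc
IFI6: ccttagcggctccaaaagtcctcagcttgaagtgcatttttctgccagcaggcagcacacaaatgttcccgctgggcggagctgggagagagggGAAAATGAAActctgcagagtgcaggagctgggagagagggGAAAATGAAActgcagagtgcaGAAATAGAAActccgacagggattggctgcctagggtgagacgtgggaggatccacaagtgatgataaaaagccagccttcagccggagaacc
IFIT1: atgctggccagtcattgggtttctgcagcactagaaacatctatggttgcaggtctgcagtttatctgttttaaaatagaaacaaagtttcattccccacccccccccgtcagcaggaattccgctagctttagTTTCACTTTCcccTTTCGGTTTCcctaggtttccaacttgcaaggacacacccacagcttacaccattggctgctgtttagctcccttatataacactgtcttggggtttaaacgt
HERC5: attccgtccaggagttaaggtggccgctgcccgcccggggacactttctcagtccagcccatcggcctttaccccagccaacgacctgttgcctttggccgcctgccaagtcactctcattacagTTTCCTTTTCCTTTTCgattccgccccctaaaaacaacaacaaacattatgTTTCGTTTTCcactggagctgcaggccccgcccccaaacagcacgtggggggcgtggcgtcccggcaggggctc
EPSTI1: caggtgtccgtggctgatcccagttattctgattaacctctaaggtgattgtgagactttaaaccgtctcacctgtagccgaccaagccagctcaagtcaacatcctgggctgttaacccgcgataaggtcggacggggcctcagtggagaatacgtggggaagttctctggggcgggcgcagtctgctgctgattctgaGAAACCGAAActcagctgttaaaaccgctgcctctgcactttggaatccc
ISG15 holds 2 matches that overlap by some bases, as do the outer matches of HERC5, and IFI6 holds 3 that do not overlap. The single match of EPSTI1 begins 50 bases before the start. Of the 40 members, 32 had an entry under their symbol (DDX58 as RIGI) and the other 8 were IRF7, OAS2, OASL, USP18, IFIT2, IFITM2, MX2 and TRIM22. Over the window from 250 bases before to 50 bases after a start, 22 of these 32 (68.8%) held at least 1 match in some listed window, against 1195 of 27305 symbols in the table (4.38%). A match is a run of letters and not a measured binding site.

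An array detected 10015 to 12090 genes (p under 0.01), and detection began at a log2 level of 5.53 to 5.73. IRAK1 checked the hairpins. In Panc1 it lay at 11.30 and 11.53 on the scramble arrays, 8.32 and 9.57 with shIRAK1 and 8.36 and 8.65 with shIRAK1+4, and the limma fold change was -2.47 ± 0.29 (adjusted p = 6.17e-05) and -2.91 ± 0.29 (adjusted p = 1.24e-05). In Capan1 it lay at 10.47 and 10.42 in scramble and fell with shIRAK1+4 (9.10 and 8.60, -1.60 ± 0.29, adjusted p = 0.00496). With shIRAK1 it lay at 9.55 and 8.97, below both scramble arrays and not past the threshold (-1.19 ± 0.29, adjusted p = 0.054), and with shIRAK4 at 9.64 and 9.56 (adjusted p = 0.0886); the differences between these knockdowns were not tested. IRAK4 lay in Panc1 at 6.42 and 5.95 in DMSO, 5.81 and 5.82 with the inhibitor and 5.92 and 6.02 with shIRAK1, and was detected on no scramble, shIRAK4 or shIRAK1+4 array of either line. Since the scramble arrays were themselves below detection, a comparison with them could not check the IRAK4 hairpin. With shIRAK1, IRAK4 was at least 1.2-fold higher than in Panc1 scramble (adjusted p = 0.0324). Several knockdown arrays stood apart from their partner: over all detected genes, Panc1 shIRAK1 replicate 1 correlated at 0.992 with Panc1 shIRAK4 replicate 1 and at 0.988 with its own partner, and Panc1 shIRAK4 replicate 2 at 0.991 with Panc1 shIRAK1+4 replicate 2 and at 0.984 with its own. In Capan1 all 4 arrays of shIRAK4 and shIRAK1+4 were closer to an array of another group than to their partner. Of 8 epithelial markers, 8 were detected on every Capan1 array and 5 on every Panc1 array, while 6 of 7 fibroblast, 6 of 9 immune and 6 of 6 (Panc1) or 4 of 6 (Capan1) endothelial markers were not detected on any array of the line.

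The members spanned the whole range of the arrays. On the log2 scale IFITM2 and IFITM3, membrane proteins that block virus entry, held the highest values (11.61 to 13.69 and 10.86 to 13.48 over the 24 arrays), with ISG15 at 8.79 to 11.81 and the exonuclease ISG20 at 8.37 to 10.45. The IFITM genes are close copies of each other, and how far their probes share signal is unknown. IFI44L and the ubiquitin ligase TRIM22 were detected on no array, CMPK2 on 1, IFIT5 on 3 and RSAD2 (viperin) on 4, and none of these 5 entered a comparison. For 11 members the row combines several probes, and the detection p of such rows was unreliable: IRF7, OAS3 and UBE2L6 lay at or over the detection limit on all 24 arrays but were called detected on 1, 4 and 3. With OAS1 and OAS2 these rows did not enter the main tests. The other 30 members were each tested in at least 1 comparison.

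**Figure D1:**
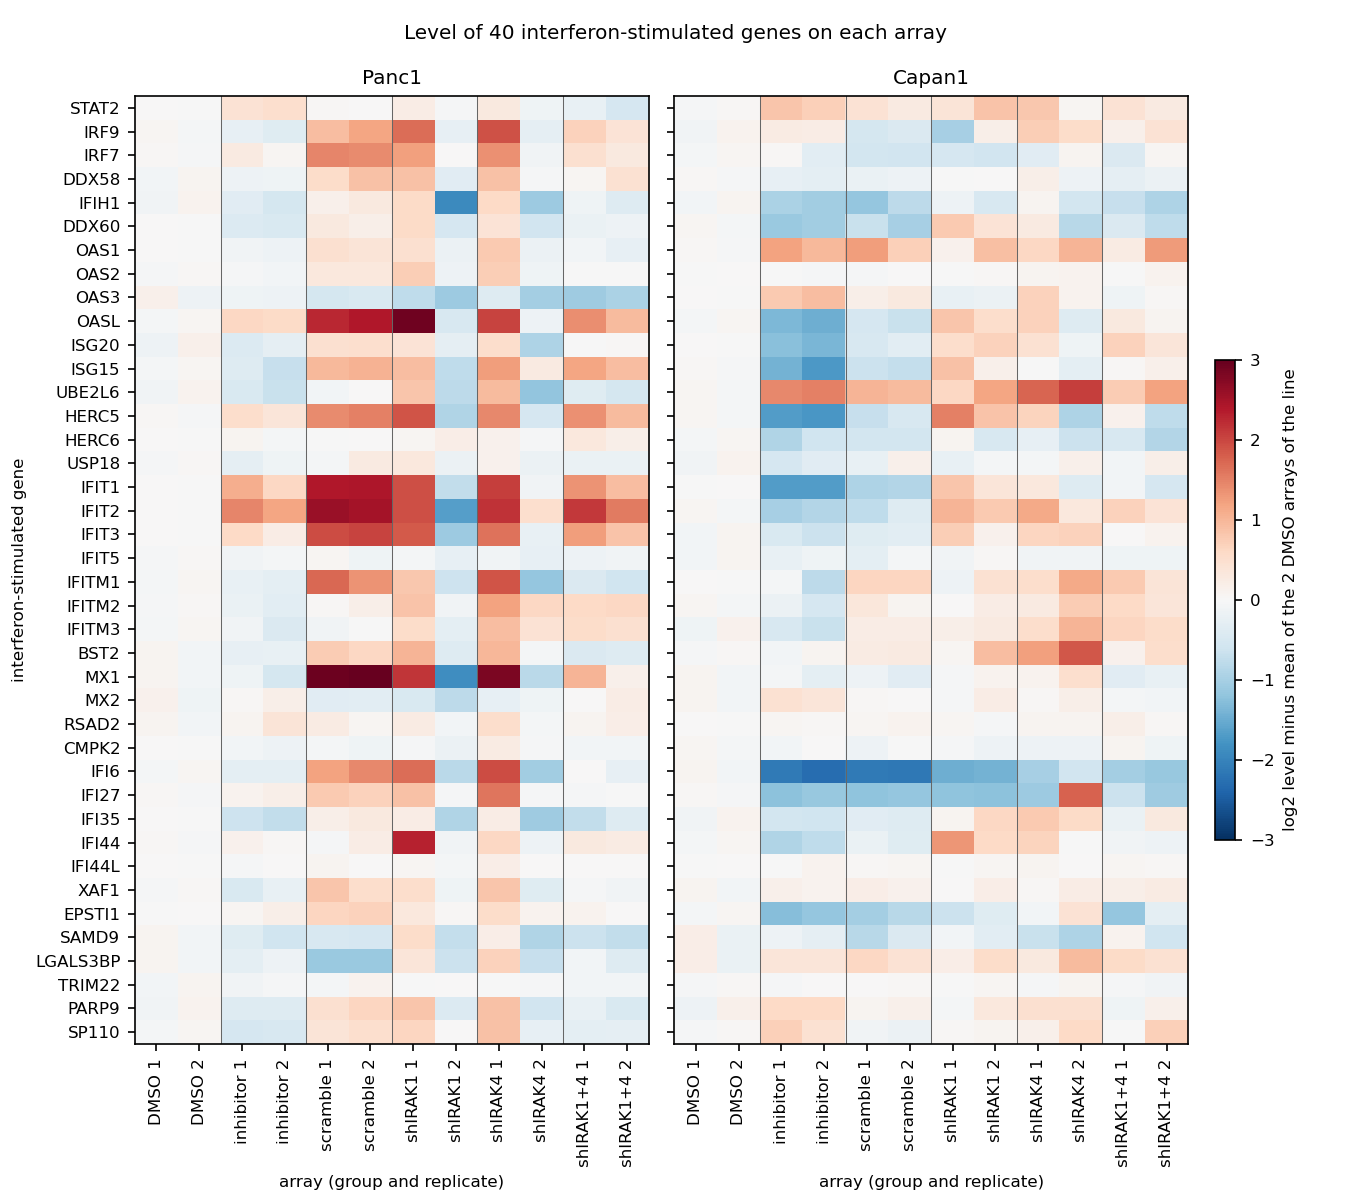
Log2 level of each of the 40 genes (rows) on each of the 12 arrays of a line (columns), as the difference from the mean of that line's 2 DMSO arrays; colours stop at ±3. Panc1 scramble arrays and the first arrays of Panc1 shIRAK1 and shIRAK4 are red for MX1, IFIT1, IFIT2 and IFIT3, and the second arrays of those knockdown groups are pale or blue.

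In Panc1, 6 of 28 tested members were higher in scramble than in DMSO cells and 1 was lower, against 12.1% and 13.8% of all tested genes. MX1, a dynamin-like GTPase that traps viral nucleocapsids, lay at 7.63 and 7.48 on the DMSO arrays and at 10.50 and 10.63 on the scramble arrays, a log2 fold change of 3.01 ± 0.98 (adjusted p = 0.0338). IFIT2, of the family that binds viral RNA, went from 7.89 and 7.84 to 10.45 and 10.36 (2.54 ± 0.74, adjusted p = 0.0188), IFIT1 from 6.99 and 6.96 to 9.37 and 9.39 (2.41 ± 0.65, adjusted p = 0.0129) and IFIT3 from 6.67 and 6.65 to 8.62 and 8.67 (1.99 ± 0.64, adjusted p = 0.0307). Both scramble arrays of each gene lay close together and far above both DMSO arrays. OASL, an OAS-like protein that supports RNA sensing by RIG-I, lay at 5.91 and 6.0 in DMSO and 8.23 and 8.36 in scramble (2.34 ± 0.75, adjusted p = 0.0315). EPSTI1, an interferon-induced gene first described in tumour and stroma contact, was detected on neither DMSO array (5.24 and 5.28) and on both scramble arrays (5.89 and 5.94), at least 1.21-fold higher (0.66 ± 0.22, adjusted p = 0.0402 as fitted). LGALS3BP, a secreted partner of galectin-3, ran the other way, from 8.50 and 8.35 to 7.32 and 7.30 (-1.12 ± 0.35, adjusted p = 0.0284). In RNA from whole cultures, fewer cells with a high level and less RNA per cell cannot be told apart.

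The threshold in these comparisons was a limma adjusted p under 0.05. The median fold change of the 28 members tested between Panc1 scramble and DMSO was 0.67, with 24 above 0, against -0.01 over all 10359 genes tested. Members above 0 that did not pass included IFITM1 (6.43 and 6.56 to 8.21 and 7.85, adjusted p = 0.0904), the ISG15 ligase HERC5 (7.82 and 7.77 to 9.21 and 9.30, 0.142), IFI6 (9.30 and 9.42 to 10.56 and 10.79, 0.183) and ISG15 (10.50 and 10.63 to 11.53 and 11.61, 0.0695). The other members below 0 were SAMD9 (6.33 and 6.18 to 5.76 and 5.76), MX2 (7.90 and 7.66 to 7.44 and 7.46) and IFITM3 (12.49 and 12.60 to 12.43 and 12.54). The spread that this model uses is shared by all groups and holds the large partner gaps of 2 Panc1 groups, described next. With the second arrays of Panc1 shIRAK1 and Panc1 shIRAK4 left out, an alternative chosen after the data had been seen, 16 members rose and 2 fell (13.8% and 15.8% of all genes), the 7 above among them. These 2 arrays were picked because the members split on them, so leaving them out lowers the members' spread, and with it their p-values, by construction. The counts and p-values of that fit, here or below, are therefore no support. Nothing is read from them against the shares of all genes. With any 1 of the 4 compared arrays left out and the other arrays kept, no member passed (7 to 9 had an unadjusted p under 0.05), and none passed under median scaling.

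**Figure D2:**
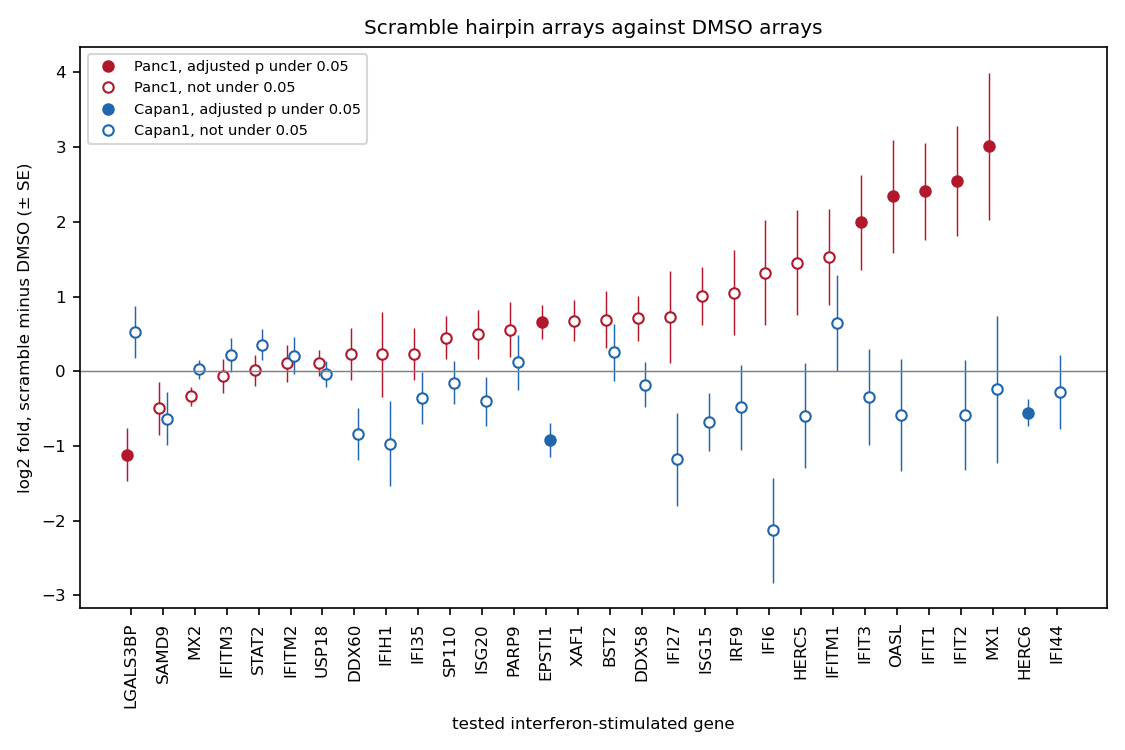
Log2 fold change of scramble against DMSO (± SE from limma) for each tested member in Panc1 (red) and Capan1 (blue); filled points had an adjusted p under 0.05. MX1 is highest in Panc1 at 3.01, and IFI6 lies at 1.32 in Panc1 and -2.13 in Capan1.

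The genes of the lambda interferons were measured on the same arrays. IL29 (interferon lambda 1), IL28A (lambda 2) and IL28B (lambda 3) were detected on no DMSO or inhibitor array of Panc1. IL29 lay at 10.21 and 10.32 on the scramble arrays, 8.64 and 8.47 with shIRAK1+4, 7.88 and 6.68 with shIRAK4 and 7.20 and 5.24 with shIRAK1, against 5.38 and 5.38 in DMSO. IL28A stood at 9.56 and 9.77 in scramble, 8.30 and 8.26 with shIRAK1+4, 7.81 and 6.73 with shIRAK4 and 6.61 and 5.23 with shIRAK1. All 3 rose from DMSO to scramble in limma. IL28A was at least 16.3-fold higher (4.24 ± 0.33, adjusted p = 5.24e-07) and IL28B at least 6.46-fold (3.04 ± 0.20, adjusted p = 7.22e-08). IL29 had an adjusted p of 1.4e-06. No least fold is given for it, because its row combines several probes and the detection p of such rows was unreliable. They were the interferon ligands tested there, 3 of the 22 with a row. All 3 fell from scramble with each knockdown, on the same scramble arrays. The limma fold changes of IL29 as fitted were -4.05, -2.99 and -1.71 for shIRAK1, shIRAK4 and shIRAK1+4 (adjusted p = 1.81e-05, 0.000215 and 0.0121). Its second shIRAK1 array, at 5.24, lay below the detection limit, so the size of -4.05 is uncertain. Within shIRAK1 and within shIRAK4, IL29 and IL28A lay lower on the second array, as did most members. Between groups the order of IL29 was not that of the members. On the first shIRAK1 array IL29 lay at 7.20 with the members' median 0.16 above the scramble mean. On the shIRAK1+4 arrays IL29 lay higher, at 8.64 and 8.47, with the members' medians lower, at -0.43 and -0.52. A part of these ligands in the members' levels was not tested. IL28A and IL28B are near-identical copies whose probes may share signal. No Capan1 array detected IL28A or IL28B. For IL29, 1 of 12 was called detected by the deposited detection p, at 5.48, below the lowest detection limit of 5.53.

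The 2 arrays of Panc1 shIRAK1, and those of Panc1 shIRAK4, did not show the same state. On the first array of shIRAK1 the members stood near scramble, with a median of 0.16 above the scramble mean over the 36 members detected on some Panc1 array, and on the second at -0.77 against scramble and -0.40 against DMSO. For shIRAK4 the medians against scramble were 0.21 and -0.76. The same medians against scramble over all 15155 detected genes lay between -0.0041 and 0.0045. Quantile normalization holds these near 0, so they are no independent reference. Under median scaling the fold changes of all tested genes had medians of 0.24 with shIRAK1 and 0.16 with shIRAK4, and the members' medians were -0.15 and -0.06. MX1 lay at 9.69 and 5.68 on the shIRAK1 arrays and 10.38 and 6.74 on the shIRAK4 arrays, so that the second arrays lay below the DMSO values (7.63 and 7.48). IFIT1 lay at 8.90 and 6.23 with shIRAK1 (replicate 1 first) and at 9.05 and 6.86 with shIRAK4. In the same order IFIT3 lay at 8.49 and 5.57, then 8.29 and 6.44, and OASL at 8.86 and 5.48, then 7.99 and 5.80. IFIH1, the RNA sensor MDA5, lay at 8.03 and 5.52, then 8.05 and 6.36, against 7.34 and 7.54 in DMSO. IFI6 split likewise (11.03 and 8.56, then 11.31 and 8.32), and IFI27, a relative of IFI6, was detected on the first arrays alone (6.30 and 7.01).

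Of the 30 members detected on an array of Panc1 shIRAK1, all 30 were lower on replicate 2, by a median of -1.25 on the log2 scale, and 19 were over 2-fold lower, where 1.03% of all 11509 detected genes were over 2-fold lower and 0.391% over 2-fold higher. The gaps ran from -4.01 for MX1 to -0.25 for STAT2, the subunit of the complex with a transactivating tail. Of 31 in Panc1 shIRAK4, 30 were lower on replicate 2, by a median of -1.19, and 19 over 2-fold, where 1.49% of all genes were over 2-fold lower and 0.407% higher. There MX1 was again lowest (-3.64), and MX2, a related GTPase that restricts retroviruses, was the exception at 0.11. The median gap over all detected genes was 0.01 and 0.02. Gene by gene, over all detected genes, the gaps of the 2 groups correlated at 0.48. Their splits therefore cannot be counted as 2 independent observations. The chemokine CCL5, from the list of other interferon targets and named after its values were seen, also lay lower on the second arrays (10.86 and 6.62 with shIRAK1 and 10.89 and 8.36 with shIRAK4). The ligands IL29 and IL28A, given above, lay lower there too. IRAK1 was lower on the shIRAK1 array with the higher members (8.32 and 9.57). The second arrays had 10426 and 10780 detected genes, within the range of the Panc1 arrays (10015 to 11123), and a background SD of 39.1 and 39.6 within a range of 24.8 to 45.6. The part of any of these in the split was not tested.

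**Figure D3:**
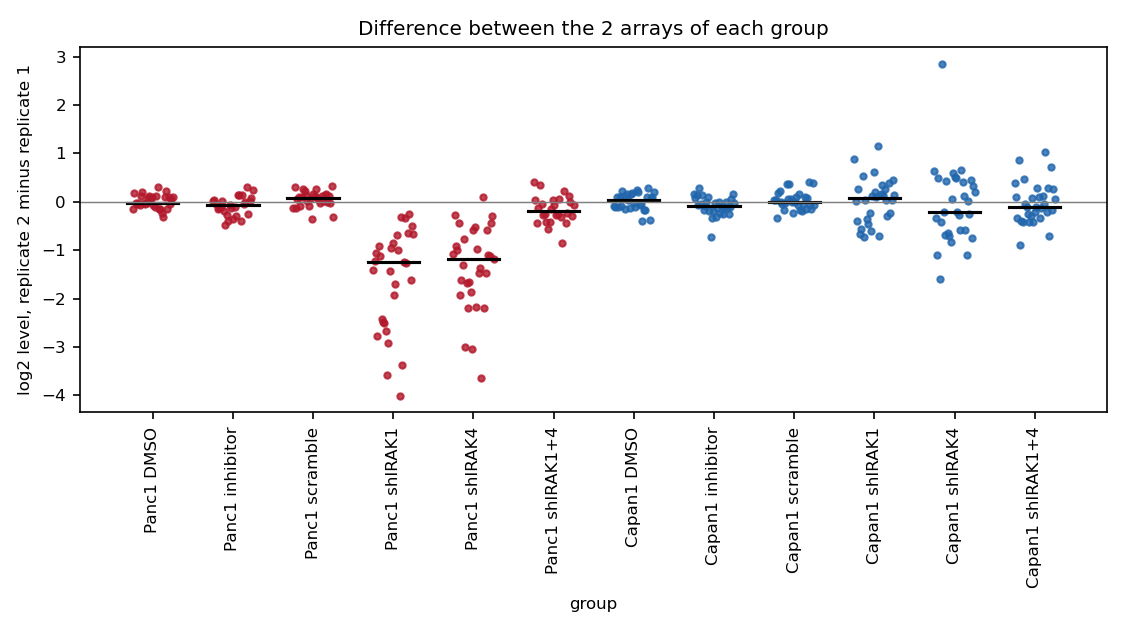
Log2 level on replicate 2 minus replicate 1 for each member detected on at least 1 array of a group (points) with their median (black bar), by group; Panc1 is red and Capan1 blue. In Panc1 shIRAK1 and shIRAK4 the medians lie at -1.25 and -1.19, and in the 10 other groups between -0.21 and 0.07.

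In the other 10 groups the median gap of the detected members lay between -0.21 and 0.07. Under median scaling it was 0.97 in Capan1 scramble and 0.15 in Capan1 inhibitor, and -1.46 and -1.54 in Panc1 shIRAK1 and shIRAK4. In Panc1 shIRAK1+4 single members ran from -0.86 (MX1) to 0.40 (DDX58, the RNA sensor RIG-I). Capan1 knockdown partners differed for single genes in both directions. In Capan1 shIRAK4, IFI27 was undetected on replicate 1 at 5.45 and lay at 8.31 on replicate 2, while HERC5 went from 8.08 to 6.47. There 3 of 31 detected members were over 2-fold lower on replicate 2 (1.32% of all genes) and 1 over 2-fold higher (1.38%). In Capan1 shIRAK1 0 of 30 were lower by that much (0.303% of all genes) and 1, IRF9, was higher (0.655%); in Capan1 shIRAK1+4 it was 0 of 31 (1.59%) and 1, OAS1 (2.07%).

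**Figure D4:**
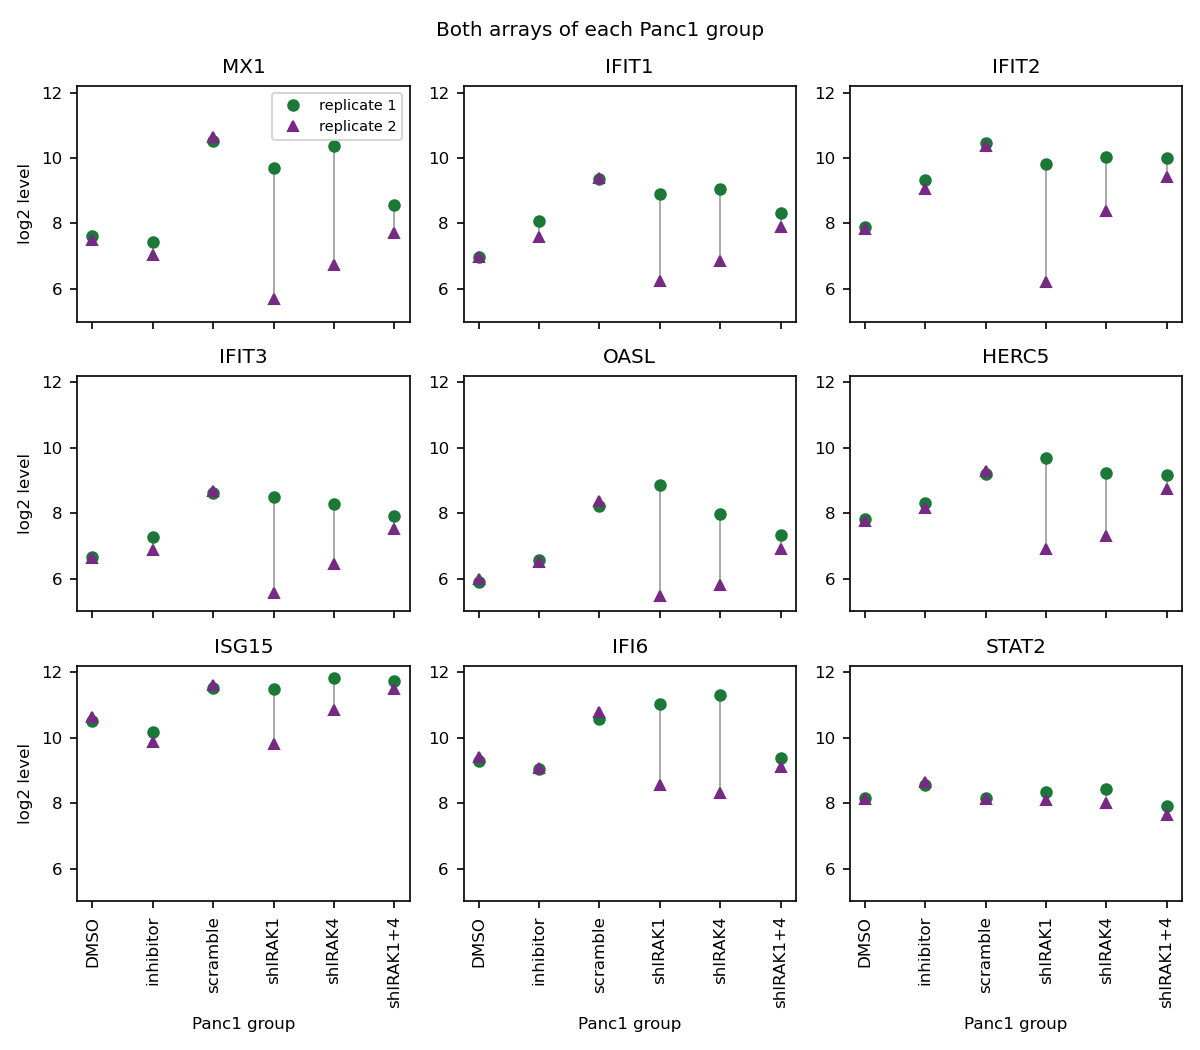
Log2 level of 9 members on both arrays of each Panc1 group, replicate 1 as circles and replicate 2 as triangles joined by a grey line. MX1 lies at 10.50 and 10.63 in scramble and at 9.69 and 5.68 with shIRAK1, while STAT2 stays between 7.63 and 8.64 on all 12 arrays.

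Against scramble, the Panc1 single knockdowns were therefore averages of unlike arrays. With shIRAK1, 1 of 27 tested members fell, IFIT2 (10.45 and 10.36 in scramble, 9.81 and 6.22 with shIRAK1, -2.39 ± 0.74, adjusted p = 0.0487), and 0 rose, against 5.03% and 5.55% of all genes. Against the scramble mean IFIT2 lay at -0.60 on the first shIRAK1 array and -4.18 on the second, so its fall rested mostly on the second. With both second arrays left out, 3 rose (IFITM2, SAMD9 and LGALS3BP) and 0 fell, against 5.76% and 4.66% of all genes. With shIRAK4, 3 of 27 rose and 0 fell (7.11% and 6.22% of all genes). They were IFITM3 (12.43 and 12.54 to 13.48 and 12.97, 0.74 ± 0.23, adjusted p = 0.0418), IFITM2 (12.51 and 12.66 to 13.69 and 13.10, 0.81 ± 0.25, adjusted p = 0.0441) and LGALS3BP (7.32 and 7.30 to 9.11 and 7.74, 1.11 ± 0.35, adjusted p = 0.0466). Against the scramble mean the first and second shIRAK4 arrays lay at 0.995 and 0.485 for IFITM3, 1.10 and 0.51 for IFITM2 and 1.80 and 0.43 for LGALS3BP. Against the DMSO mean IFITM3 and IFITM2 lay above 0 on both arrays, and LGALS3BP at 0.68 and -0.69. With either scramble array left out, 0 members passed in limma in either comparison (4 with shIRAK1 and 3 with shIRAK4 had an unadjusted p under 0.05).

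With shIRAK1+4 the Panc1 partners were alike, and most members lay below scramble. Of 28 tested, 22 had a fold change below 0 (median -0.55, against 0.02 over all 10369 genes), but 1 fell past the threshold and 1 rose, where 6.61% and 8.22% of all genes did. The gene that fell was IFITM1 (8.21 and 7.85 to 6.05 and 5.90, -2.05 ± 0.64, adjusted p = 0.0414) and the one that rose was MX2 (7.44 and 7.46 to 7.79 and 8.01, 0.45 ± 0.13, adjusted p = 0.0246). Against the DMSO mean, IFITM1 lay at -0.44 and -0.60 and MX2 at 0.01 and 0.23 on these arrays. MX1 lay at 8.56 and 7.70 against 10.50 and 10.63 in scramble (-2.43 ± 0.98, adjusted p = 0.11), between the DMSO and the scramble values. IFI6 lay at 9.37 and 9.11, close to its DMSO level of 9.30 and 9.42, and the tetherin BST2, which holds budding virus at the membrane, went from 6.74 and 6.60 to 5.55 and 5.59, not detected on either array. IFIT2, at 9.99 and 9.43, lay below scramble (adjusted p = 0.573), and ISG15, at 11.74 and 11.48, overlapped it. When the 2 discordant arrays were left out, 12 members fell and 4 rose (8.55% and 10.3% of all genes), with the fold changes themselves unchanged. MX1 at -2.43, IFI6 at -1.44, IFIT1 at -1.27 and OASL at -1.17 were among those lower. MX2, IFITM2, IFITM3 and LGALS3BP were higher. With those 2 arrays kept, leaving out either scramble array or the second shIRAK1+4 array left no member past the threshold (4 or 5 had an unadjusted p under 0.05).

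In Capan1, 2 members rose against scramble with shIRAK4, and with shIRAK1 and with shIRAK1+4 no tested member passed in limma. With shIRAK4, 27 of 28 tested members had a fold change above 0 (median 0.55, against -0.03 over all genes), and 2 rose, EPSTI1 (5.90 and 6.09 to 6.84 and 7.34, 1.09 ± 0.22, adjusted p = 0.00629) and BST2 (5.78 and 5.82 to 6.78 and 7.41, 1.30 ± 0.38, adjusted p = 0.0476), and 0 fell, where 4.51% of all genes rose and 3.95% fell. Against the DMSO mean, EPSTI1 lay at -0.07 and 0.42 on the shIRAK4 arrays, and BST2, not detected in DMSO, at 1.235 and 1.864. Neither gene passed without the first scramble or the second shIRAK4 array. With shIRAK1, 23 of 28 were above 0 (median 0.38), and 0 passed in limma (6 had an unadjusted p under 0.05, all higher), where 0.888% and 0.757% of all genes rose and fell. The values ran high for HERC5 (6.70 and 6.92 to 8.91 and 8.25), IFIT2 (7.5 and 7.86 to 9.28 and 9.06) and IFI44 (7.0 and 6.82 to 8.51 and 7.79). With shIRAK1+4, 19 of 26 were above 0 (median 0.25) and 0 passed (1 at an unadjusted p under 0.05), against 2.32% and 3.35% of all genes. IFI6 lay at 7.23 and 7.21 in scramble and at 7.88 and 7.92 with shIRAK1, 8.35 and 8.77 with shIRAK4 and 8.32 and 8.23 with shIRAK1+4, above both scramble arrays on all 6, and still below its DMSO level of 9.42 and 9.28. The size of these medians depended on the scaling, and with shIRAK1+4 the sign did too. Under median scaling the members' median was 0.01 with shIRAK1, 0.19 with shIRAK4 and -0.20 with shIRAK1+4. Over all genes tested it was -0.39, -0.36 and -0.47, so the members' median stayed above that of all genes in each comparison.

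Leaving out the 2 discordant Panc1 arrays, picked for the members' split, also changed the Capan1 counts through the spread that all groups share. The Capan1 arrays were all kept, and nothing is read from the new counts against the shares of all genes. Then 10 members rose with shIRAK1 (1.35% of all genes), 11 with shIRAK4 (5.24%) and 4 with shIRAK1+4 (3.08%), and 0 fell in each (1.22%, 4.8% and 4.07%). IFI6 and IFIT2 were among them in all 3 comparisons, with IFI6 at the same 0.68, 1.34 and 1.05 as with all arrays. The 3 comparisons share the Capan1 scramble arrays. Between the lines, with all 24 arrays kept, the effect of shIRAK1+4 differed in limma for 0 of 30 members (8 at an unadjusted p under 0.05, 7 of them lower in Panc1), where 6.02% of all genes were higher in Panc1 and 4.3% lower. Without the 2 arrays 2 members were higher in Panc1 and 14 lower (7.73% and 6% of all genes).

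Under the main scaling the Capan1 scramble arrays themselves lay below DMSO for many members. Of 28 tested, 20 had a fold change below 0 (median -0.35), 2 fell and 0 rose, where 7.64% and 7.97% of all genes did. EPSTI1 went from 6.86 and 6.96 to 5.90 and 6.09 (-0.92 ± 0.22, adjusted p = 0.0107) and HERC6, a relative of HERC5, from 6.83 and 6.93 to 6.32 and 6.33 (-0.55 ± 0.17, adjusted p = 0.0421). Under median scaling, which moved the median of all genes here by 0.58, 3 members rose and 0 fell, and the fold change of HERC6 turned to 0.07. The members' median turned to 0.29, still below that of all genes. IFI6 lay at 9.42 and 9.28 in DMSO and 7.23 and 7.21 in scramble (-2.13 ± 0.70, adjusted p = 0.051), IFI27 at 6.57 and 6.50 against 5.34 and 5.37, IFIH1 at 7.42 and 7.57 against 6.34 and 6.71, and the helicase DDX60 at 6.78 and 6.68 against 6.06 and 5.72, none of these past the threshold. The highest fold changes were those of IFITM1 (8.82 and 8.80 to 9.46 and 9.45), LGALS3BP (8.59 and 8.19 to 9.0 and 8.83), STAT2 (8.01 and 8.11 to 8.49 and 8.34), BST2 (5.52 and 5.57 to 5.78 and 5.82) and IFITM3 (11.40 and 11.64 to 11.75 and 11.74), none past the threshold. Without the 2 discordant arrays 7 fell, IFI6 among them at the same -2.13, and 0 rose (8.77% and 9% of all genes). With 1 compared array left out, 0 or 1 passed.

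In Capan1 members passed the threshold with the inhibitor in both directions. Of 27 tested, 6 fell and 2 rose, where 15.8% and 16.5% of all genes did. IFI6 lay at 9.42 and 9.28 on the DMSO arrays against 7.23 and 7.06 on the inhibitor arrays (-2.21 ± 0.70, adjusted p = 0.0249), ISG15 at 10.54 and 10.48 against 9.10 and 8.79 (-1.57 ± 0.39, adjusted p = 0.00633), and ISG20 at 9.77 and 9.74 against 8.49 and 8.37 (-1.32 ± 0.33, adjusted p = 0.00604). EPSTI1 went from 6.86 and 6.96 to 5.63 and 5.76 (-1.22 ± 0.22, adjusted p = 0.000746), DDX60 from 6.78 and 6.68 to 5.6 and 5.69 (-1.08 ± 0.35, adjusted p = 0.0271) and HERC6 from 6.83 and 6.93 to 5.98 and 6.28 (-0.75 ± 0.17, adjusted p = 0.004). EPSTI1 and DDX60 were each detected on 1 of the 2 inhibitor arrays. The 2 that rose were STAT2 (8.01 and 8.11 to 8.89 and 8.78, 0.78 ± 0.21, adjusted p = 0.00929) and MX2 (8.86 and 8.68 to 9.22 and 9.14, 0.41 ± 0.13, adjusted p = 0.0214). Of the 27 tested, 21 had a fold change below 0, with a median of -0.57 against 0.00 over all 10871 genes. When detection was read from the signal level, OAS1, OAS3 and UBE2L6 were higher as well, as given below. HERC5 lay at 7.45 and 7.35 in DMSO against 5.72 and 5.65 (adjusted p = 0.0726) and OASL at 6.98 and 7.08 against 5.67 and 5.56 (0.165). IFIT1, at 7.38 and 7.41 against 5.73 and 5.73, was not tested here because of the detection p of its several-probe row. MX1 lay at 9.59 and 9.43 against 9.45 and 9.22 (-0.18 ± 0.98, adjusted p = 0.905). Without the 2 discordant arrays 15 fell and 4 rose (17% and 17.9% of all genes), the 8 above among them. With 1 of the compared arrays left out 3 to 5 passed, and IFI6 and DDX60 passed in none of these 4 fits (adjusted p = 0.0840 to 0.117); under median scaling 1 fell and 1 rose.

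In Panc1 the inhibitor gave no member past the threshold. Of 26 tested, 0 passed in limma, and 1 had an unadjusted p under 0.05, where 3.73% of all genes rose and 3.01% fell; 18 of 26 had a fold change below 0 (median -0.26). IFIT2, IFIT1 and OASL had the highest fold changes, IFIT2 going from 7.89 and 7.84 to 9.32 and 9.04 (1.32 ± 0.74, adjusted p = 0.337), IFIT1 from 6.99 and 6.96 to 8.06 and 7.59 and OASL from 5.91 and 6.0 to 6.57 and 6.52. ISG15 went from 10.50 and 10.63 to 10.17 and 9.87 and IFI35 from 9.28 and 9.25 to 8.64 and 8.52. Without the 2 discordant arrays IFIT1 and IFIT2 rose and IFI35 fell (4.73% and 4.89% of all genes). With the spread of the Panc1 DMSO and inhibitor arrays alone the count was 5 higher and 7 lower. The share of all genes in that fit is not given, so nothing is read from this count.

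**Figure D5:**
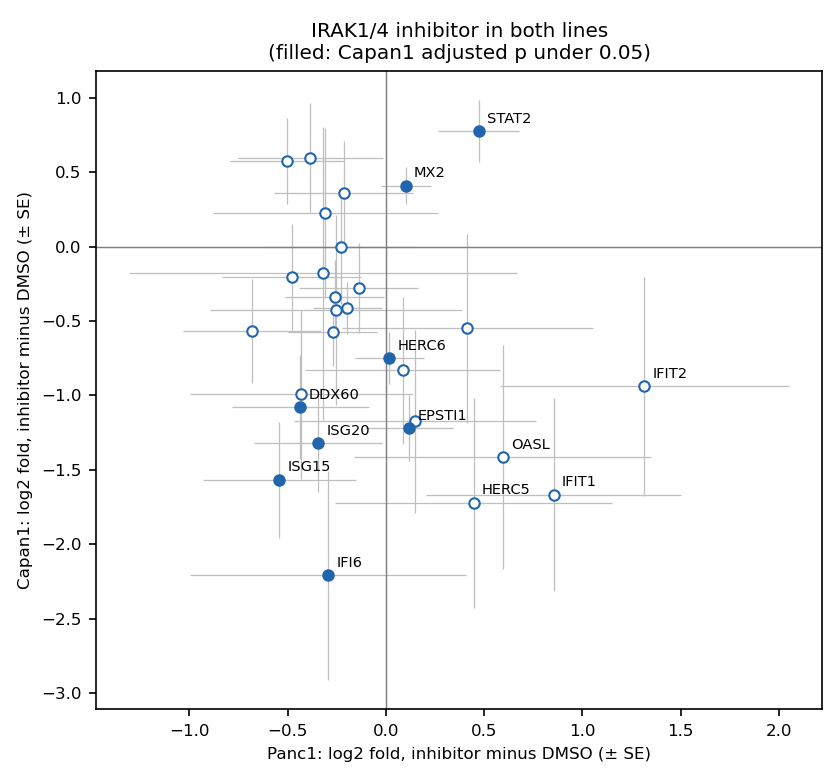
Log2 fold change of inhibitor against DMSO (± SE from limma) in Panc1 (horizontal) and Capan1 (vertical) for each member tested in either line; filled points passed the threshold in Capan1. IFIT2 lies at 1.32 in Panc1 and -0.94 in Capan1, and STAT2 is above 0 in both.

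The fitted inhibitor effects differed between the lines in limma for 2 of 29 tested members, both higher in Panc1 than in Capan1. Of all genes, 7.9% were higher and 8.12% lower. EPSTI1 differed by 1.34 ± 0.32 (adjusted p = 0.00993) and HERC6 by 0.77 ± 0.25 (adjusted p = 0.0448). Neither gene was detected on a DMSO or inhibitor array of Panc1, so its Panc1 side is a value at or below the detection limit. A fall there could not have been seen, and these 2 differences cannot show that the lines respond unlike each other. Without the 2 discordant arrays 10 members were higher and 2 lower (9.18% and 9.75% of all genes), HERC6 no longer passed (adjusted p = 0.0515), and IFIT1, IFIT2, OASL and HERC5 were among the higher. IFIT1 differed by 2.52 and IFIT2 by 2.25, the same differences as with all arrays, where neither gene passed.

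In DMSO, 7 of 28 tested members were lower in Panc1 than in Capan1 and 1 was higher, where 26.8% of all genes were lower and 30.1% higher, so the members' shares were not above those of all genes. SAMD9, a factor that restricts poxviruses, lay at 6.33 and 6.18 in Panc1 and 8.89 and 8.51 in Capan1 (-2.45 ± 0.35, adjusted p = 2.14e-05), and IFITM1 at 6.43 and 6.56 against 8.82 and 8.80 (-2.31 ± 0.64, adjusted p = 0.00574). EPSTI1 and HERC6 were detected in Capan1 only, at least 2.42-fold and 2.36-fold higher there (-1.66 ± 0.22, adjusted p = 1.06e-05 and -1.49 ± 0.17, adjusted p = 2.27e-06 as fitted). IFI44 (-1.54 ± 0.49, adjusted p = 0.0141), IRF9 (-1.38 ± 0.57, adjusted p = 0.0499) and MX2 (-0.99 ± 0.13, adjusted p = 5.61e-06) were lower in Panc1 as well, and IFITM3 was higher (12.49 and 12.60 against 11.40 and 11.64, 1.02 ± 0.23, adjusted p = 0.00113). Without the 2 discordant arrays 11 were lower and 2 higher (27.3% and 31.1% of all genes). MX1 was among the lower (7.63 and 7.48 against 9.59 and 9.43, -1.96).

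Of the 5 members left out of the main tests for their detection p, 4 passed in some comparison when detection was read from the signal level, an alternative chosen after the data had been seen. In Capan1 the inhibitor then raised UBE2L6, the enzyme that carries ISG15 to its ligases (8.11 and 7.98 to 9.50 and 9.55, 1.48 ± 0.50, adjusted p = 0.0334), OAS1 (6.75 and 6.69 to 7.94 and 7.69, 1.09 ± 0.34, 0.0225) and OAS3 (6.28 and 6.28 to 7.07 and 7.20, 0.86 ± 0.19, 0.00301), the synthetases that switch on RNase L, where 16.9% of all genes rose. In Panc1, IRF7, a transcription factor for interferon genes, rose in scramble (6.62 and 6.56 to 8.05 and 8.01, 1.44 ± 0.37, adjusted p = 0.010), with 12.8% of all genes. Between the lines in DMSO, OAS1 was lower in Panc1 (-1.11 ± 0.34, adjusted p = 0.011) and OAS3 higher (0.75 ± 0.19, 0.00330), against 27% and 30.7% of all genes. The inhibitor effect of OAS3 was lower in Panc1 than in Capan1 (-0.99 ± 0.27, adjusted p = 0.0212), against 8.3% of all genes. How the probes of these rows were combined is not given in the sources used here.

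The other genes of the interferon pathway were counted in the same fits, against the shares of all genes given above, and a few genes stand in more than 1 list. In Panc1 scramble against DMSO, 1 of 6 tested receptor and receptor kinase genes rose (TYK2, 0.56 ± 0.12, adjusted p = 0.00349) and 1 fell (IFNGR1, -0.75 ± 0.26, adjusted p = 0.0461), and of the further STAT and IRF genes 2 fell (STAT3 at -0.96 and IRF3 at -0.61). Of 11 nucleic acid sensing genes 1 rose and 2 fell, and of 13 interferon gamma targets 0 rose and 6 fell, among them GBP2, at least 2.69-fold lower (-1.72 ± 0.48, adjusted p = 0.015 as fitted), IFI30 (-1.09), TAP2 (-1.0) and PSMB8 (-0.95). Of 41 further type I targets 6 rose and 7 fell, led by C15ORF48 (-1.64), HLA-E (-1.48) and BLZF1 (1.22). TRIM25, the ligase that activates RIG-I, rose in Panc1 scramble (0.74 ± 0.17, adjusted p = 0.00543) and fell with shIRAK1 (-0.83) and shIRAK4 (-0.77). These comparisons share the scramble arrays with opposite signs, so the rise and the falls are not independent. With shIRAK1, shIRAK4 and shIRAK1+4, 3 of 39, 3 of 37 and 4 of 36 further type I targets fell and 0, 0 and 1 rose, TRIM21 (-1.03 and -0.59) and TRIM5 (-0.72, -0.57 and -0.88) among those that fell.

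In Capan1 the inhibitor lowered the chemokine CCL5 from 9.30 and 9.37 to 6.17 and 5.86, detected on 1 of the 2 arrays (-3.32 ± 0.93, adjusted p = 0.0125), and 8 of 45 further type I targets fell and 8 rose, C15ORF48 (-2.08), DRAP1 (-1.24) and PARP14 (1.03) among them. Of 13 sensing genes 5 fell and 1 rose, with the kinase IKBKE at -0.88 ± 0.14 (adjusted p = 0.000281), the adaptor TRAF3 at -0.87, MYD88 at -0.55 and TICAM1 at -0.52. Of the further STAT and IRF genes 2 fell, IRF3 (-1.10 ± 0.14, adjusted p = 2.61e-05) and STAT3 (-0.71), and of 7 receptor genes 2 rose, the interferon receptor chain IFNAR1 (1.23 ± 0.18, adjusted p = 9.1e-05) and IL10RB (0.65), and 1 fell, IFNGR1 (-0.86). Of 11 interferon gamma targets 3 fell and 1 rose. With shIRAK4 10 of 44 further type I targets rose and 0 fell, led by TNFSF10 (TRAIL, 1.53 ± 0.27, adjusted p = 0.00246), C15ORF48 (1.26), HLA-F (1.13) and HLA-E (0.89), and 1 of 13 gamma targets rose, CXCL10, at least 1.63-fold (0.81 as fitted). With shIRAK1 and shIRAK1+4 the further type I targets gave 1 and 3 that rose of 44 and 43, and 1 and 0 that fell. In Panc1 the inhibitor moved 1 of 41 each way (NT5C3 at 0.56 and LAP3 at -0.59), and 31 of the 41 had a fold change below 0. Of 13 interferon gamma targets 2 fell and 0 rose there, and all 13 had a fold change below 0 (median -0.65).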

How the data were processed

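The authors deposited a log2 signal and a detection p-value for each of 34595 gene rows on 24 Illumina arrays, and GenomeStudio 2011 is named per the submitters' processing notes. How 7404 rows combine several probes is not given in the sources used here. The deposited log2 signals were made linear, corrected for background with normexp (background estimated from the 27191 rows of 1 probe), given an offset of 16, quantile normalized and returned to log2. Quantile normalization by itself holds the median fold change over all genes near 0 in every comparison. A model with 12 group means was fitted in R 4.3.3 with limma 3.58.1 (residual df 12, prior SD 0.14). Genes entered a comparison when 1 of its groups had a detection p under 0.01 on each of its 2 arrays, with Benjamini-Hochberg adjustment over all genes tested and a threshold of 0.05. The number of arrays limits the precision. The members, gene lists and the rule for named genes were chosen with earlier results of these data known: the 15 largest treatment calls, the 5 largest scramble differences each way and up to 4 called genes per list. The second table of the authors' deposited log2 values served as an alternative. Leaving out 2 arrays together, and detection by signal level, were alternatives chosen after seeing the data. The labels do not pair samples by replicate number, and the main model used no pairing. A gene of the pathway is not reported here.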

Additional observations from a re-analysis of the deposited data

Results flagged for a closer look

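The fitted effects of the inhibitor differed between the lines, by the limma test of the difference itself, for HERC6 and EPSTI1. For HERC6 the log2 effect in Panc1 minus that in Capan1 was 0.77 ± 0.25 (adjusted p = 0.0448), and for EPSTI1 it was 1.34 ± 0.32 (adjusted p = 0.00993). Both genes fell in Capan1 on both inhibitor arrays and were detected on no DMSO or inhibitor array of Panc1. A fall in Panc1 could therefore not have been seen, and an unlike response of the lines is not shown. With any 1 of the 8 arrays left out EPSTI1 still passed, and under median scaling it did not (adjusted p = 0.262). HERC6 passed under 5 of its 18 alternatives and missed the threshold under 13, among them 7 of the 8 that leave out 1 array (adjusted p = 0.0785 to 0.171) and median scaling (0.644).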

How the results depend on the processing

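Counts here are members past the threshold in limma, named by the treated group against its control, and the cause of each change was not tested unless named. The shares of all genes are not given for most settings, so no count here is read as above or below them. The main counts were 0 for Panc1 inhibitor, 8 for Capan1 inhibitor, 1 for Panc1 shIRAK1, 3 for Panc1 shIRAK4, 2 for Panc1 shIRAK1+4, 0 for Capan1 shIRAK1, 2 for Capan1 shIRAK4, 0 for Capan1 shIRAK1+4, 7 for Panc1 scramble, 2 for Capan1 scramble, 8 for the DMSO lines, 2 for the inhibitor difference and 0 for the shIRAK1+4 difference. Median scaling, which moved the median of all genes by up to 0.58, gave 2 for Capan1 inhibitor, 0 for Panc1 shIRAK1, 0 for Panc1 shIRAK4, 0 for Panc1 shIRAK1+4, 0 for Capan1 shIRAK4, 0 for Panc1 scramble and 0 for the inhibitor difference. Background from every row gave 3 for Panc1 shIRAK1, 0 for Panc1 shIRAK4, 1 for Capan1 shIRAK1, 4 for Panc1 scramble, 1 for Capan1 scramble and 1 for the shIRAK1+4 difference. No background correction gave 0 for Panc1 shIRAK4, 0 for Capan1 shIRAK4, 0 for Capan1 scramble and 1 for the inhibitor difference. The authors' deposited normalized table gave 0 for Panc1 shIRAK4, 0 for Capan1 shIRAK4, 0 for Capan1 scramble and 1 for the inhibitor difference. Without the detection filter, which adds genes to the adjustment, the counts were 0 for Panc1 shIRAK1, 0 for Panc1 shIRAK4, 1 for Panc1 shIRAK1+4, 1 for Capan1 shIRAK4, 2 for Panc1 scramble, 1 for Capan1 scramble and 1 for the inhibitor difference. Array weights gave 4 for Panc1 inhibitor, 18 for Capan1 inhibitor, 4 for Panc1 shIRAK1, 15 for Panc1 shIRAK1+4, 2 for Capan1 shIRAK1, 18 for Panc1 scramble, 9 for Capan1 scramble, 15 for the DMSO lines, 12 for the inhibitor difference and 2 for the shIRAK1+4 difference. The spread of the same line and arm, or of the compared groups alone, gave 12 for Panc1 inhibitor, 21 for Capan1 inhibitor, 0 for Panc1 shIRAK1, 0 for Panc1 shIRAK4, 0 for Panc1 shIRAK1+4, 1 for Capan1 shIRAK4, 21 for Panc1 scramble, 18 for Capan1 scramble, 20 for the DMSO lines, 18 for the inhibitor difference and 16 for the shIRAK1+4 difference. Without both second arrays of Panc1 shIRAK1 and shIRAK4 they were 3 for Panc1 inhibitor, 19 for Capan1 inhibitor, 16 for Panc1 shIRAK1+4, 10 for Capan1 shIRAK1, 11 for Capan1 shIRAK4, 4 for Capan1 shIRAK1+4, 18 for Panc1 scramble, 7 for Capan1 scramble, 13 for the DMSO lines, 12 for the inhibitor difference and 16 for the shIRAK1+4 difference. Those of Panc1 shIRAK1 and shIRAK4, then 1 array each, are not given. Detection by signal level gave 1 for Capan1 shIRAK1. Other counts not repeated under a setting stayed within 1.5 times the main count. With 1 compared array left out the counts ran from 3 to 5 for Capan1 inhibitor, 0 to 9 for Panc1 shIRAK1, 0 to 8 for Panc1 shIRAK4, 0 to 1 for Panc1 shIRAK1+4, 0 to 2 for Capan1 shIRAK4, 0 to 0 for Panc1 scramble, 0 to 1 for Capan1 scramble, 1 to 2 for the inhibitor difference and 0 to 2 for the shIRAK1+4 difference. A group is then 1 array, and these counts are not set against the shares of all genes. The replicate numbers are shared only as numbers, so the block has no basis in the labels. Partner deviations correlated over 0.1 in some groups only, at 0.48 between Panc1 shIRAK1 and Panc1 shIRAK4. With the replicate number as a block the counts were 0 for Panc1 inhibitor, 11 for Capan1 inhibitor, 3 for Panc1 shIRAK1, 3 for Panc1 shIRAK4, 6 for Panc1 shIRAK1+4, 1 for Capan1 shIRAK1, 2 for Capan1 shIRAK4, 0 for Capan1 shIRAK1+4, 8 for Panc1 scramble, 3 for Capan1 scramble, 8 for the DMSO lines, 3 for the inhibitor difference and 1 for the shIRAK1+4 difference. The median gap between the arrays of a group moved under median scaling to 0.15 in Capan1 inhibitor and 0.97 in Capan1 scramble, and in Panc1 shIRAK1 and shIRAK4 it stayed below 0 at -1.46 and -1.54. HERC6 in Capan1 scramble reversed to 0.0733 under median scaling. In that comparison 3 members then rose and 0 fell, where 0 rose and 2 fell in the main fit. Levels near the detection limit, such as those of EPSTI1, HERC6 and IFI27, are limited by background.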
